A study of Homo sapiens with 8 samples.

Results

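The replication-dependent histone genes are described here in ribosome footprints of BJ-HRAS skin fibroblasts. Members were all genes whose name in the deposited tables begins with HIST1H, HIST2H, HIST3H or HIST4H, which gave 55 of 11940 genes: 5 H1, 13 H2A, 17 H2B, 12 H3 and 8 H4 genes. Of these, 46 carry HIST1 names, 6 HIST2 names and 3 HIST3 names, and none carries a HIST4 name. The table with 4-OHT lists all 55 among its 11079 genes and the table without it lists 54 among its 11546; 10685 genes are in both.

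The 4 groups compared were pairs of clones: SNORA13 KO clones 66 and 69 after 7 days in 100 nM (Z)-4-Hydroxytamoxifen (4-OHT), WT clones 15 and 54 after the same treatment, the same KO clones without 4-OHT, and the same WT clones without it. All clones are BJ-HRAS, a derivative of the BJ human skin fibroblast line, grown in serum; 4-OHT is a ligand commonly used to activate proteins fused to the estrogen receptor, and the series asks what this snoRNA does in making ribosomes and in senescence. The labels describe neither the transgene and its promoter nor how the knockout was made, and SNORA13 itself has 0 rows in the tables, so the genotype labels cannot be checked here. Each genotype is 2 clones, so a difference between genotypes and one between these clones cannot be told apart; 4-OHT and the table, deposited as separate files, cannot be told apart either.

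Replication-dependent histone genes encode the linker histone H1 and the core histones H2A, H2B, H3 and H4, an octamer of which wraps the DNA of each nucleosome. Their genes lie in clusters, lack introns, and give mRNAs that end in a stem-loop bound by SLBP in place of a poly(A) tail. The mRNAs accumulate in S phase and are degraded when DNA synthesis stops, and some copies can also give polyadenylated transcripts in cells that have left the cycle. Many copies encode the same or nearly the same protein, so footprints can map to several copies. How the authors treated such reads is not given in the sources used here. The value of any single copy is uncertain for that reason. Class sums do not depend on how reads were split among copies of a class. They do depend on whether such reads were dropped or counted more than once.

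Values are RPKM, reads per kilobase of gene scaled to the library's total. Library reads, recovered exactly from the values, were 190878 and 982085 in KO clones 66 and 69 with 4-OHT, 1686598 and 589011 in WT clones 15 and 54 with 4-OHT, 901951 and 1710474 in KO clones 66 and 69 without it, and 1321941 and 790753 in WT clones 15 and 54 without it. The library of KO clone 66 with 4-OHT was the shallowest and had 3169 genes at 0, against 474 to 1913 in the other libraries. In it 3 reads of a 393-bp gene, the commonest H2A length, were worth 40 RPKM, against 4.46 to 13.0 RPKM in the others. All 10 of 10 fibroblast markers were listed, taking 3.01% to 3.02% of reads in KO and 2.94% to 3.54% in WT clones with 4-OHT, against 6.79% to 7.98% in KO and 8.67% to 8.94% in WT clones without it. None of the 4 melanocyte markers was listed, keratinocyte, endothelial and leukocyte markers each took at most 0.00995% of any library, and epithelial markers at most 0.0386%. The part of the lower fibroblast marker share in the results below was not tested.

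Histone genes of every class took a larger share of the footprints with 4-OHT in both genotypes. All members together took 1.80% and 2.15% of library reads in KO clones 66 and 69 with 4-OHT, against 0.339% and 0.394% in the same clones without it. They took 1.24% and 2.24% in WT clones 15 and 54 with 4-OHT, against 0.322% and 0.345% in the same clones without it. The share was 5.31 and 5.45 times as high in KO clones 66 and 69, and 3.87 and 6.50 times as high in WT clones 15 and 54. No library with 4-OHT overlapped any library without it.

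**Figure D1:**
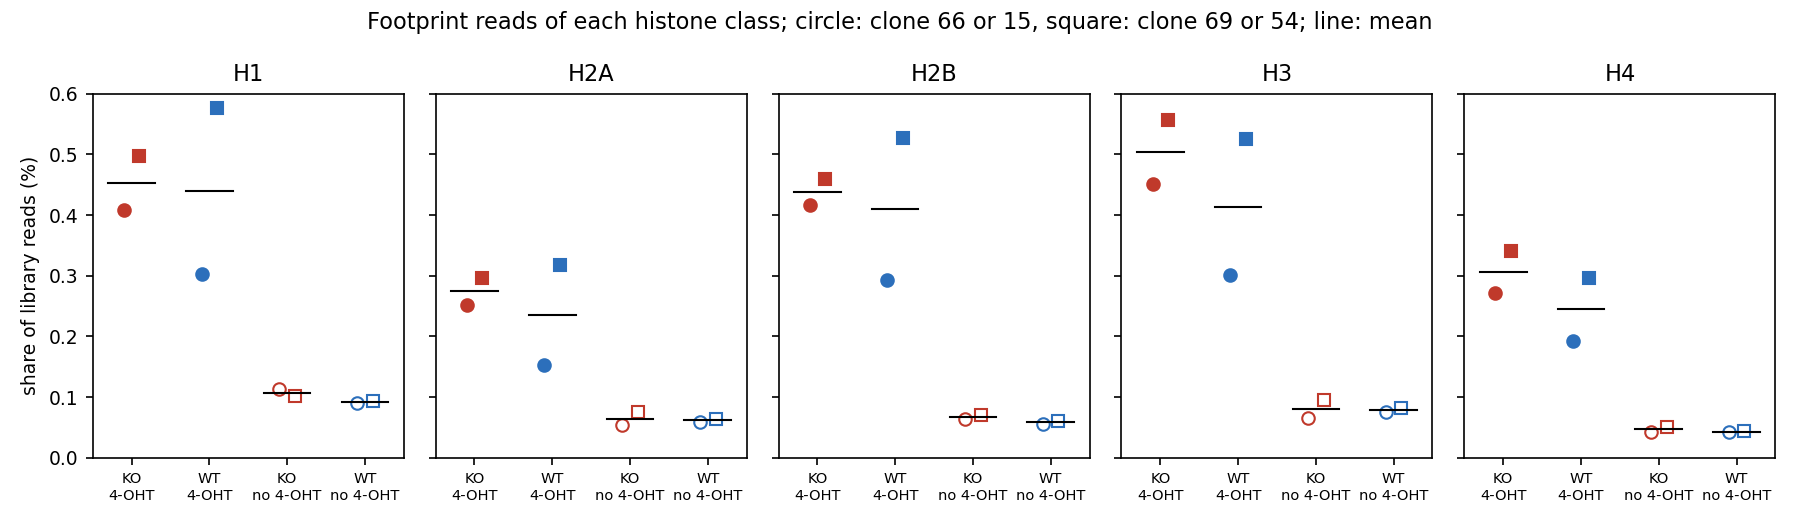
Share of library reads (%, linear axis from 0) taken by each histone class in the 8 libraries, by genotype and treatment; each point is 1 library and each line the mean of 2. In all 5 classes the 4 libraries with 4-OHT lie above the 4 without it, and WT clone 15 is the lowest of the 4 with 4-OHT in H1, H2A, H2B, H3 and H4.

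By summed RPKM the linker histone H1 reached 6618 ± 894 in KO clones with 4-OHT, against 1565 ± 119 in KO clones without it, a ratio of 4.23 (SD, n = 2 each, as for all sums here). H2A reached 5680.4 ± 585 with 4-OHT, against 1435 ± 375 without it, a ratio of 3.96. H2B, H3 and H4 had ratios of 6.56, 6.20 and 7.58. In WT clones the ratios with 4-OHT over without were 4.79 for H1, 3.70 for H2A, 6.47 for H2B, 5.29 for H3 and 6.91 for H4. H1 and H2A thus had the smaller ratios of means in both genotypes. The WT sums with 4-OHT spread widely, at 6460.5 ± 2833 for H1, 4928 ± 2449 for H2A and 7987 ± 3196 for H3. These sums were not tested, and in bulk libraries a different number of cells carrying a transcript and a different amount of footprint RNA per cell cannot be told apart.

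Gene by gene, 53 of the 55 members had at least 10 reads in at least 2 of the 8 libraries and were tested with limma-trend on log2(RPKM + 1), with p-values adjusted over all 8820 genes tested and called at an adjusted p under 0.05. In KO clones 48 of 53 were called higher with 4-OHT and 0 lower, where 17.3% of all genes tested were called higher and 10.6% lower. In WT clones 47 of 53 were called higher and 0 lower, against 13.7% and 8.06% of all genes. The median log2 change of the members was 2.48 in KO clones and 2.15 in WT clones, against 0.05 and 0.06 over all genes. In KO clones 50 members lay wholly above their values without 4-OHT, and in WT clones 52 did, where 37.1% and 41.7% of all genes tested did. With median-ratio scaling 46 members were called higher in KO and 42 in WT clones, while all genes split into 1017 higher and 1340 lower in KO clones and 832 and 984 in WT clones, against 1526 and 934 and 1212 and 711 with the deposited scaling. Without the shallow library of KO clone 66 the median change of the members was 2.63 in KO clones, against 0.09 over all genes. Without WT clone 54 with 4-OHT it was 1.81 in WT clones, against 0.07 over all genes. In both of these fits fewer members, and fewer of all genes, were called higher than in the main fit.

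Short genes outside the family moved in the same direction. Of 18 other tested genes with a length up to 1000 bp, 13 were called higher and 1 lower in KO clones and 8 higher and 0 lower in WT clones, with medians of 2.12 and 1.5. MT-ATP6, MT-CO2, MT-ATP8 and MT-ND4L, which the mitochondrial genome encodes, were among these, with log2 changes of 6.30, 6.14, 6.20 and 4.77 in KO clones. Of 268 other genes over 1000 and up to 3000 bp, 96 were called higher and 18 lower in KO clones, with a median of 0.83. The 36 members up to 1000 bp had medians of 2.44 in KO and 2.10 in WT clones, and the 17 longer ones 2.50 and 2.42. The part of gene length in the histone result was not tested.

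**Figure D2:**
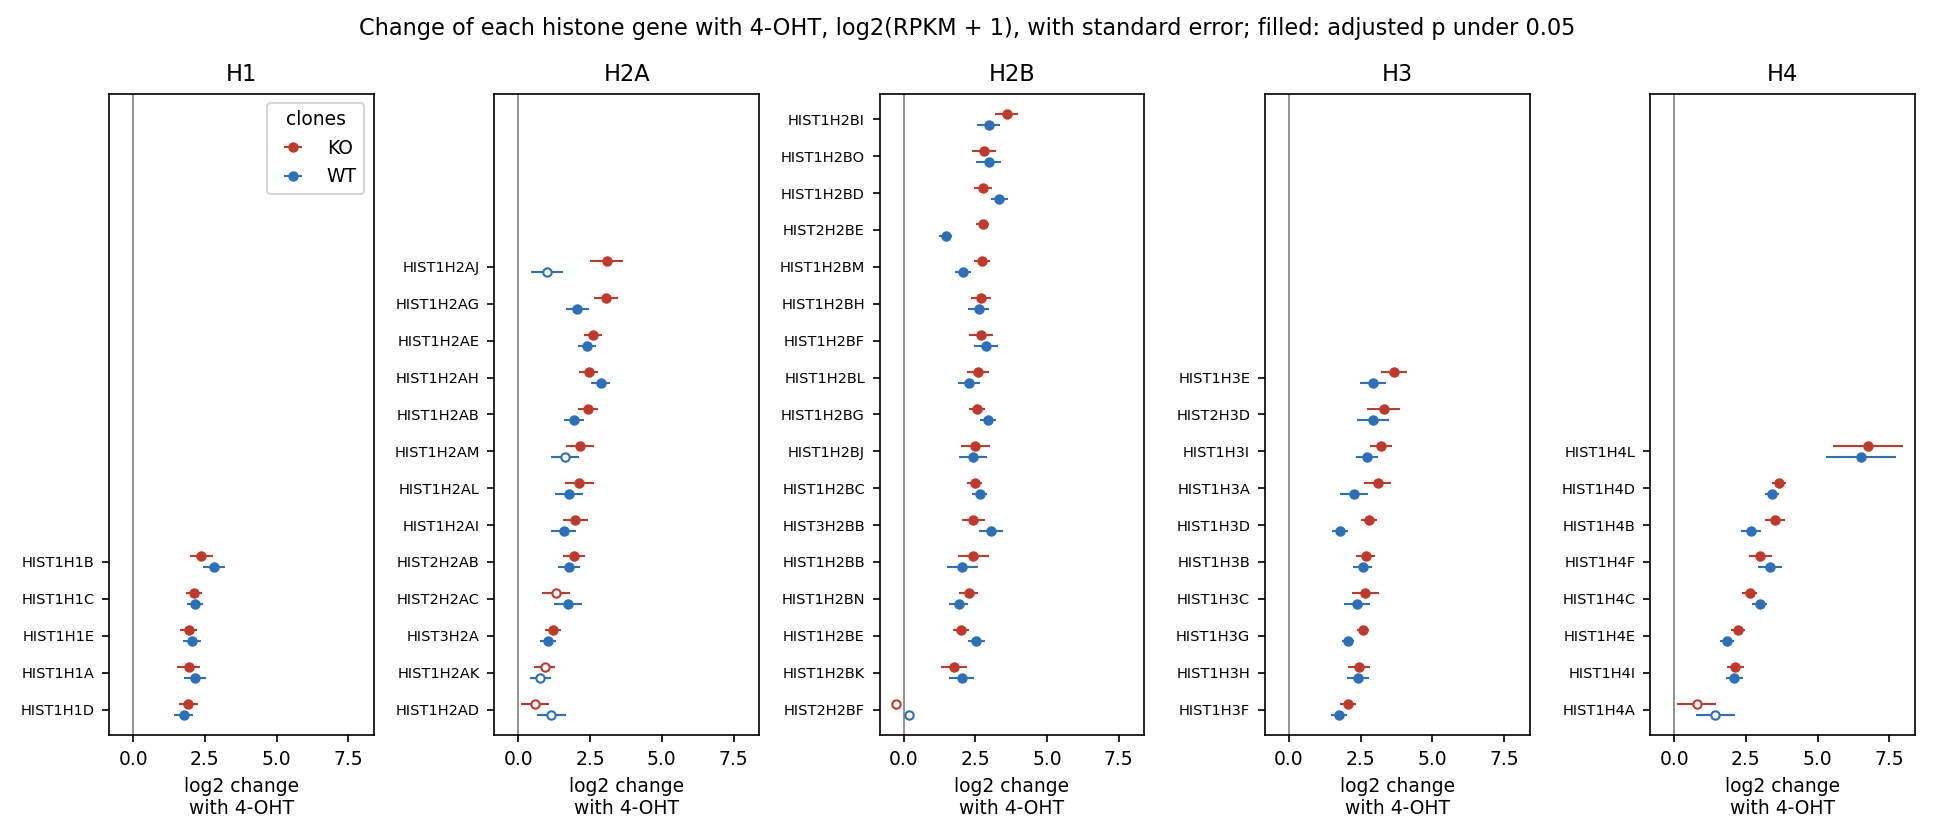
Log2 change with 4-OHT of each tested histone gene (horizontal axis, log2(RPKM + 1) scale, bars 1 standard error) by class, KO clones in red above WT clones in blue; filled points passed an adjusted p under 0.05. HIST1H4L lies farthest right at 6.76 in KO and 6.52 in WT clones, and HIST2H2BF lies at -0.25 and 0.18.

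The members are grouped on 2 chromosomes in GRCh38. On chromosome 6, 28 members lie between 26017032 and 26273412, 5 between 27132316 and 27147562 and 13 between 27807479 and 27893891. On chromosome 1, 5 lie between 149782689 and 149887965, 3 between 228424845 and 228458558, and HIST2H3PS2 alone at 143902386 to 143905977. In KO clones the median log2 change was 2.59, 2.45 and 2.44 in the chromosome 6 groups, and in WT clones 2.39, 2.10 and 2.07. The group of 5 on chromosome 1 had 1.93 in KO and 1.72 in WT clones. Members were called higher in every group with tested members.

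The promoters of a few members are printed because these genes had the highest mean level of their class (HIST1H1C, HIST1H2BI, HIST1H3B and HIST1H4D), the largest change (HIST1H4L) or a change not called in either genotype (HIST1H2AK). Each line gives the 150 bases before the annotated start from RefSeq on GRCh38.p14, 5′ to 3′ on the gene's strand. Capitals mark 3 motifs on either strand: the NF-Y element CCAAT, then a TATA box with the letters TATAAA, and the octamer bound by OCT1, which reads ATTTGCAT.
HIST1H1C, chr6:26056471-26056620, minus strand: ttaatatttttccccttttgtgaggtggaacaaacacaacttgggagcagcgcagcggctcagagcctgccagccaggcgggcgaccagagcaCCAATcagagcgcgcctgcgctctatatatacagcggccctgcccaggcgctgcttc
HIST1H2BI, chr6:26272781-26272930, plus strand: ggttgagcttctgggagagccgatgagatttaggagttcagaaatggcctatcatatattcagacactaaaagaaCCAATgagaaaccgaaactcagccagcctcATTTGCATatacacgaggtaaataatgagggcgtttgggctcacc
HIST1H3B, chr6:26032100-26032249, minus strand: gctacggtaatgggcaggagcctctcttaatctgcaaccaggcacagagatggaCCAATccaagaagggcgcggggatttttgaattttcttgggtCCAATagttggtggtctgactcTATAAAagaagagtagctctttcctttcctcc
HIST1H4D, chr6:26189113-26189262, minus strand: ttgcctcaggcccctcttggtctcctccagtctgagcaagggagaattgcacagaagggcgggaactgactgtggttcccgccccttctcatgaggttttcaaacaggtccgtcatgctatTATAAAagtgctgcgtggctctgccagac
HIST1H4L, chr6:27873535-27873684, minus strand: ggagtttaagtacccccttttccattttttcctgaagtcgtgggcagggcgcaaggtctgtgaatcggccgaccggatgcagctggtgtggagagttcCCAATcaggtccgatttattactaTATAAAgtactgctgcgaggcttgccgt
HIST1H2AK, chr6:27838376-27838525, minus strand: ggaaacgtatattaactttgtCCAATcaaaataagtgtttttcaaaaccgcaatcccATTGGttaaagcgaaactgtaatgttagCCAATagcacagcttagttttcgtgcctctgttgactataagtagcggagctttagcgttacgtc

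Of the 55 members, 47 matched a RefSeq promoter. In the 250 bases before the start, CCAAT was present on either strand in 44 of the 47 (93.6%), against 32.0% of 35116 promoters in the table. TATAAA was present in 30 of 47 (63.8%), against 10.7% of all promoters. ATTTGCAT was present in 21 of 47 (44.7%), against 1.63% of all. The octamer was in 12 of 15 H2B and 9 of 12 H2A promoters and in 0 of 5 H1, 0 of 9 H3 and 0 of 6 H4 promoters. Head-to-head H2A and H2B genes of known strand start 194 to 248 bases apart, so their searched windows overlap. Their promoters are thus not separate counts, and 1 octamer can count in both. Members with and without it had median log2 changes of 2.50 and 2.40 in KO clones and 2.06 and 2.21 in WT clones; this was not tested. The 3 promoters without CCAAT were H4 promoters. A match is a description of these bases only.

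Among linker histones all 5 members rose in both genotypes. HIST1H1C, the highest of them, stood at 2439.9 and 2447 RPKM in KO clones 66 and 69 with 4-OHT, against 603 and 534 RPKM in the same clones without it. It stood at 1779 and 3234 RPKM in WT clones 15 and 54 with 4-OHT, against 555 and 534 RPKM without it. The treated KO clones were nearly equal while the treated WT clones spread widely, and neither overlapped its untreated values. The log2 change was 2.11 ± 0.28 in KO clones (SE, adjusted p = 0.00228) and 2.14 ± 0.28 in WT clones (adjusted p = 0.00249) by limma-trend. HIST1H1B, a linker histone of dividing cells, had the largest change of the class at 2.38 in KO and 2.81 in WT clones. HIST1H1D had the smallest, at 1.92 and 1.77, the WT value losing its call without WT clone 54 without 4-OHT (adjusted p = 0.0733). HIST1H1E, the second highest, had 1668 and 2016 RPKM in KO clones with 4-OHT, against 481 and 477 RPKM without it.

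H2A was the class with most members not called. Of its 13 members 10 were called higher in KO clones and 9 in WT clones, with medians of 2.12 and 1.72. All 13 had a change above 0 in both genotypes. HIST1H2AE, the highest copy, had 1451 and 1224 RPKM in KO clones 66 and 69 with 4-OHT, against 194 and 247 RPKM without it. In WT clones 15 and 54 it had 708 and 1334 RPKM with 4-OHT, against 179.8 and 186 RPKM without it. The groups did not overlap in either genotype, and the log2 changes were 2.60 ± 0.31 in KO clones (adjusted p = 0.00134) and 2.40 ± 0.31 in WT clones (adjusted p = 0.00218) by limma-trend.

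HIST1H2AD and HIST1H2AK were called in neither genotype. HIST1H2AD had 227 and 570.0 RPKM in KO clones 66 and 69 with 4-OHT, against 209 and 275 RPKM without it, overlapping values. In WT clones it had 361 and 760.3 RPKM with 4-OHT, against 200.2 and 277 RPKM without it, which did not overlap. Its log2 change was 0.58 ± 0.50 in KO clones (adjusted p = 0.412) and 1.15 ± 0.50 in WT clones (adjusted p = 0.146, or 0.0492 with the clone as a block). With limma-voom on the recovered reads HIST1H2AD was called in both, at 0.92 in KO and 1.03 in WT clones (adjusted p = 0.0331 and 0.00586). HIST1H2AK had 133 and 155 RPKM in KO clones with 4-OHT, against 67.7 and 84.8 RPKM without it, and 83.0 and 194 RPKM in WT clones with 4-OHT, against 78.9 and 70.8 RPKM without it. Within each genotype its treated values lay above its untreated ones, by a log2 change of 0.92 ± 0.37 in KO clones (adjusted p = 0.103) and 0.76 ± 0.37 in WT clones (adjusted p = 0.188). On the 4 KO libraries alone the KO change passed (adjusted p = 0.0455), as it did when either treated WT library was left out (0.0194 and 0.0204), and the WT change passed at 1.37 without WT clone 15 with 4-OHT (adjusted p = 0.0175).

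HIST1H2AJ had the largest change of the class in KO clones, 3.08 ± 0.57, with 217 and 163 RPKM with 4-OHT, against 11.5 and 39.3 RPKM without it. In WT clones it had 61.3 and 39.5 RPKM with 4-OHT, against 35.2 and 16.3 RPKM without it, a change of 1.00 that was not called (adjusted p = 0.260). HIST1H2AH had the largest change in WT clones, 2.87 ± 0.34, and was called in both genotypes under every alternative run. HIST1H2AL rose by 2.12 in KO and 1.76 in WT clones, calls that ended without KO clone 66 without 4-OHT (adjusted p = 0.105) or with 4-OHT (0.0508), and in WT clones without clone 15 without 4-OHT (0.215) or clone 54 without (0.107) or with 4-OHT (0.228). The WT call of HIST1H2AL also ended with 0.1 added in place of 1 (0.0537), with no filter (0.0774) and with median-ratio scaling (0.0749). HIST1H2AM rose by 2.14 in KO clones, not called without KO clone 66 without 4-OHT (adjusted p = 0.106), and had 1.62 in WT clones (adjusted p = 0.0523), called by limma-voom (0.000998), on the WT libraries alone (0.0357) and without KO clone 69 without 4-OHT (0.0497) or WT clone 15 with 4-OHT (0.0204).

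In H2B 16 of 17 members were called higher in each genotype, with medians of 2.56 in KO and 2.53 in WT clones. HIST1H2BI, the highest copy per length on average, had 798 and 941 RPKM in KO clones 66 and 69 with 4-OHT, against 61.1 and 82.9 RPKM without it. In WT clones 15 and 54 it had 580.5 and 1426 RPKM with 4-OHT, against 119 and 113 RPKM without it. Treated and untreated values did not overlap, and the log2 change was 3.59 ± 0.39 in KO clones (adjusted p = 0.00107), the largest of the class there, and 2.96 ± 0.39 in WT clones (adjusted p = 0.00248). HIST1H2BD had the largest change in WT clones at 3.33 ± 0.30. HIST1H2BO rose by 2.80 and 2.96, and HIST1H2BB by 2.43 and 2.05. The HIST1H2BB calls ended without KO clone 69 without 4-OHT (adjusted p = 0.0835), without KO clone 66 with 4-OHT (0.0679) and, in WT clones, without clone 15 (0.114) or clone 54 (0.181) without 4-OHT or clone 54 with it (0.196), with no filter (0.0664) and with median-ratio scaling (0.0666).

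Gene length as the authors counted it differs within H2B, so levels per length do not rank its members. Of the 17, 11 have lengths over 1000 bp, up to 29682 bp for HIST2H2BF and 27137 bp for HIST1H2BN, and 5 have 381 bp. HIST1H2BG, named after its values were seen, had the most H2B reads over the 8 libraries. Its RPKM was 379 and 436 in KO clones 66 and 69 with 4-OHT, against 65.8 and 70.9 without it, and 320.4 and 570.0 in WT clones 15 and 54 with 4-OHT, against 48.3 and 61.0 without it. Its log2 change was 2.56 in KO and 2.95 in WT clones.

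Every tested H3 member was called, as in H1: 10 of 10 rose in both genotypes, with medians of 2.74 in KO and 2.39 in WT clones. HIST1H3B, the highest copy, had 2243 and 3072 RPKM in KO clones 66 and 69 with 4-OHT, against 332 and 501 RPKM without it. In WT clones it had 1777 and 2929 RPKM with 4-OHT, against 337 and 428 RPKM without it. The treated values were all above the untreated ones, with a log2 change of 2.68 ± 0.33 in KO clones (adjusted p = 0.00157) and 2.58 ± 0.33 in WT clones (adjusted p = 0.00216). HIST1H3C, with levels close to it, rose by 2.67 and 2.38; the WT call ended without clone 15 (adjusted p = 0.0728) or clone 54 (0.0572) without 4-OHT or clone 54 with it (0.0642). HIST1H3E had the largest change in KO clones at 3.66 and HIST2H3D in WT clones at 2.93, a WT call that ended without WT clone 54 without 4-OHT (adjusted p = 0.0790). HIST1H3F had the smallest in both, 2.07 and 1.76.

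H4 held both the largest change of the family and a member that was not called. Of its 8 members 7 were called higher in each genotype, with medians of 2.83 in both. HIST1H4D had 1562 and 1746 RPKM in KO clones 66 and 69 with 4-OHT, against 121 and 139 RPKM without it. In WT clones 15 and 54 it had 967 and 1137 RPKM with 4-OHT, against 80.0 and 122 RPKM without it. Its groups were far apart, and its log2 change was 3.66 ± 0.24 in KO clones (adjusted p = 0.000193) and 3.40 ± 0.24 in WT clones (adjusted p = 0.000320). HIST1H4C and HIST1H4B, the next highest, rose by 2.64 and 3.52 in KO clones and by 2.99 and 2.67 in WT clones.

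HIST1H4L was near the detection floor without 4-OHT and well above it with 4-OHT. It had 20 and 90 reads (336 and 294 RPKM) in KO clones 66 and 69 with 4-OHT, against 0 and 4 reads (0 and 7.50 RPKM) without it. It had 134 and 65 reads (255 and 354 RPKM) in WT clones 15 and 54 with 4-OHT, against 4 and 0 reads (9.70 and 0 RPKM) without it. The fitted log2 change of 6.76 ± 1.21 in KO clones (adjusted p = 0.00664) and 6.52 ± 1.21 in WT clones (adjusted p = 0.00898) depends on the added 1, since 1 library of each untreated pair is at 0. With 0.1 added in place of 1 the WT change was 8.24 and not called (adjusted p = 0.0559), and it was also not called without WT clone 54 with 4-OHT (0.0637). HIST1H4A had 101 and 382 RPKM in KO clones with 4-OHT, against 74.6 and 171 RPKM without it, and 219 and 403 RPKM in WT clones with 4-OHT, against 82.4 and 146 RPKM without it. Its changes of 0.79 ± 0.68 and 1.43 ± 0.68 were not called (adjusted p = 0.413 and 0.181), but were with limma-voom (0.0288 and 0.00696), and in WT clones with the clone as a block (0.0149) or on the WT libraries alone (0.0344).

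**Figure D3:**
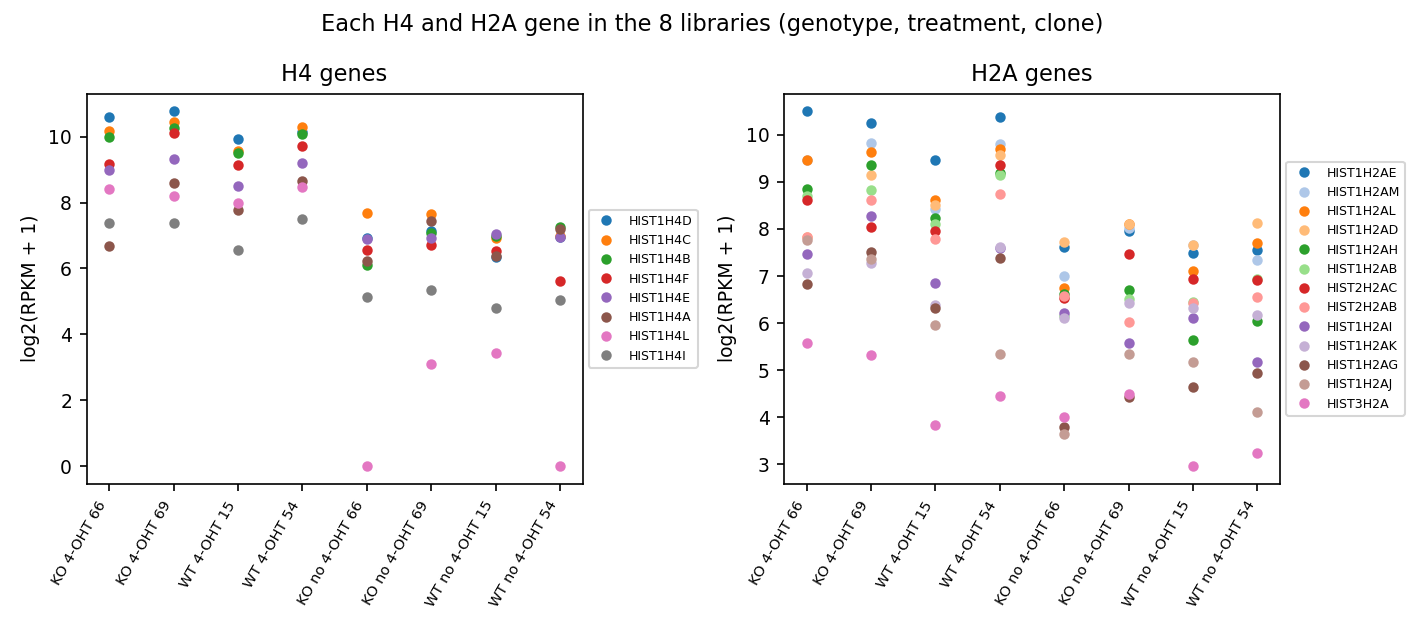
Level of each H4 gene (left) and H2A gene (right) as log2(RPKM + 1) in the 8 libraries; each point is 1 gene in 1 library. HIST1H4L stands at 0 in 1 KO and 1 WT library without 4-OHT and between 255 and 354 RPKM in all 4 with it, and HIST1H2AE is the highest H2A gene in all 4 libraries with 4-OHT.

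HIST2H2BF, whose 29682-bp length dilutes its RPKM, had 0 and 5 reads in KO clones 66 and 69 with 4-OHT, against 7 and 16 reads without it, and 10 and 13 reads in WT clones with 4-OHT, against 12 and 6 reads without it. Its log2 change was -0.25 in KO clones (adjusted p = 0.290) and 0.18 in WT clones (adjusted p = 0.502). All its values were under 1 RPKM, where the added 1 shrinks a change, and the ratio of mean RPKM in KO clones was 0.297, with values with 4-OHT wholly below those without it; with 0.1 added the KO change was -1.23. It was not called in KO clones under any of the 16 alternatives run (adjusted p from 0.0950 to 0.650). HIST2H2BE, an H2B gene also known for polyadenylated transcripts, rose by 2.75 in KO and 1.46 in WT clones. HIST2H2AC rose by 1.72 in WT clones (adjusted p = 0.0438, or 0.0625 with the clone as a block) and had 1.32 in KO clones (adjusted p = 0.0832, or 0.0334 by limma-voom). The WT call of HIST2H2AC also ended without clone 15 (0.160) or clone 54 (0.173) without 4-OHT or clone 54 with it (0.199), with 0.1 added in place of 1 (0.0528), with no filter (0.0762) and with median-ratio scaling (0.0774). Its KO change passed without WT clone 15 (0.0381) or clone 54 (0.0406) with 4-OHT. HIST2H2AB rose by 1.93 and 1.77, and lost its call without KO clone 69 without 4-OHT (0.0576) and, in WT clones, without clone 15 (0.0926) or clone 54 (0.0820) without 4-OHT or clone 54 with it (0.0906).

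On the HIST3 locus, HIST3H2A and HIST3H2BB rose together but unequally. HIST3H2A rose by 1.20 in KO and 1.04 in WT clones on 6 to 34 reads a library, and neither limma-voom (adjusted p = 0.0889 and 0.290) nor median-ratio scaling (0.0522 and 0.0865) called it in either genotype. With no filter the WT call ended (0.0542). Its calls also ended without KO clone 66 without 4-OHT (0.112) or with it (0.0658) and, in WT clones, without clone 15 (0.185) or clone 54 (0.101) without 4-OHT or clone 54 with it (0.195). HIST3H2BB rose by 2.43 and 3.05 (the KO call ended with 0.1 added in place of 1, adjusted p = 0.0512), having 6 and 25 reads in KO clones with 4-OHT, against 5 and 3 reads without it, and 28 and 18 reads in WT clones with 4-OHT, against 2 and 0 reads without it. Both remaining members missed the filter: HIST2H3PS2 had at most 9 reads in any library, and HIST3H3, which encodes a testis H3, had 1 read in WT clone 54 with 4-OHT and 0 in the other 3 libraries of the only table that lists it.

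H2A and H2B genes of known strand that lie head to head have 194 to 248 bases between their starts, and partners did not always change alike. HIST1H2AH and HIST1H2BK lacked a matched strand, so their orientation was not established. HIST1H2AE and HIST1H2BG, 233 bases apart, changed by 2.60 and 2.56 in KO clones and 2.40 and 2.95 in WT clones. HIST1H2AD and HIST1H2BF, 223 bases apart, had 0.58 and 2.69 in KO clones and 1.15 and 2.88 in WT clones. HIST1H2AK and HIST1H2BN, 194 bases apart, had 0.92 and 2.27 in KO clones and 0.76 and 1.92 in WT clones. HIST3H2A and HIST3H2BB, 230 bases apart, had 1.20 and 2.43 in KO clones and 1.04 and 3.05 in WT clones. The difference within pairs was not tested.

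The balance between classes moved with 4-OHT. H2A had 0.605 and 0.648 reads per H2B read in KO clones 66 and 69 with 4-OHT and 0.522 and 0.600 in WT clones 15 and 54 with it, against 0.844 and 1.06 in KO clones and 1.05 and 1.05 in WT clones without it. All 4 ratios with 4-OHT were below all 4 without it. H1 made up 22.7% and 23.1% of histone reads in KO clones and 24.4% and 25.7% in WT clones with 4-OHT, against 33.3% and 25.8% in KO clones and 28.0% and 27.1% in WT clones without it, which did not overlap though WT clone 54 with and KO clone 69 without 4-OHT were nearly equal. The H3 to H4 ratio overlapped, at 1.66 and 1.64 in KO and 1.56 and 1.77 in WT clones with 4-OHT, against 1.53 and 1.87 in KO and 1.79 and 1.85 in WT clones without it. These ratios are of reads, not of protein, and were not tested.

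**Figure D4:**
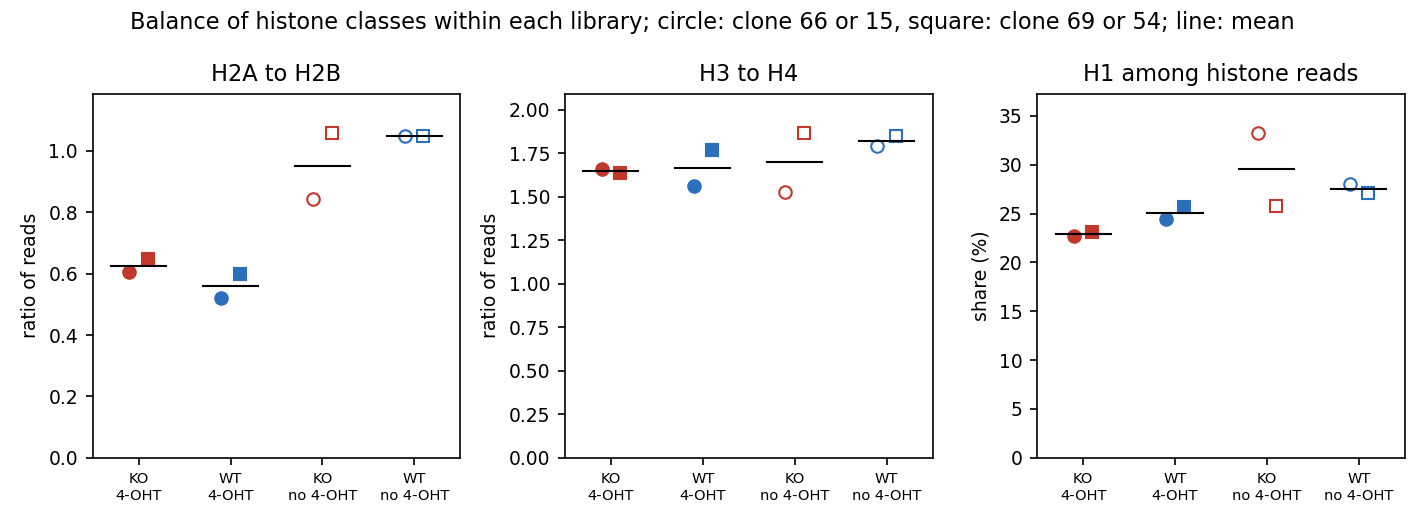
Ratio of H2A to H2B reads, ratio of H3 to H4 reads and H1 as a share of histone reads (%) in each of the 8 libraries, axes from 0; points are libraries and lines means of 2. The H2A to H2B ratio lies between 0.522 and 0.648 with 4-OHT and between 0.844 and 1.06 without it, while the H3 to H4 ratio overlaps.

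Within classes some copies took a different share of the reads. HIST1H2AE made up 29.4% and 21.0% of H2A reads in KO clones and 23.5% and 21.4% in WT clones with 4-OHT, against 18.5% and 16.6% in KO and 15.6% and 14.7% in WT clones without it. HIST1H2AD made up 3.54% and 7.53% in KO and 9.26% and 9.44% in WT clones with 4-OHT, against 15.4% and 14.3% in KO and 13.4% and 16.9% in WT clones without it. Neither copy's shares overlapped between treated and untreated libraries. HIST1H4D made up 17.9% and 16.0% of H4 reads in KO and 15.6% and 11.9% in WT clones with 4-OHT, against 8.74% and 8.55% in KO and 5.96% and 8.57% in WT clones without it. HIST1H4E, named after its values were seen, was the H4 copy with most reads in every library, at 27.7% to 29.1% with 4-OHT, against 35.2% to 46.4% without it. HIST1H3F made up 8.36% to 9.04% of H3 reads with 4-OHT, against 12.7% to 13.4% without it.

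The genotypes were set against each other separately for each treatment, in fits of 4 libraries. With 4-OHT, 0 of 53 members tested were called higher or lower in KO clones by limma-trend, where 0% of 7794 genes were called in either direction. An unadjusted p under 0.05 was found for 5 members and for 370 of all 7794 genes. Values did not overlap between genotypes for 9 of 53 members, 8 of them higher in KO clones, where 19.1% of all genes tested lay wholly higher and 18.4% wholly lower. Limma-voom called 4 members higher: HIST1H3D by 1.13 (adjusted p = 0.000263), HIST1H3G by 0.81 (0.00554), HIST2H2BE by 1.03 (0.0103) and HIST1H2AJ by 1.64 (0.0483). Without KO clone 69 the limma-trend differences were 2.12 for HIST1H2AJ, 1.44 for HIST3H2A, -1.55 for HIST1H4A and -0.53 for HIST2H2BF. The lone KO library, the shallow one of clone 66, had 16, 8, 6 and 0 reads of these genes. It was then assumed to vary like the WT pair. HIST1H2AJ had the smallest p, with 217 and 163 RPKM in KO clones, against 61.3 and 39.5 RPKM in WT clones, on 16 and 62 reads in KO clones and 40 and 9 reads in WT clones, a difference of 1.91 ± 0.30 (adjusted p = 0.823). HIST2H2BE had 103 and 159 RPKM in KO clones, against 73.0 and 62.7 RPKM in WT clones, and HIST1H3G had 330.3 and 315 RPKM in KO clones, against 159.6 and 229 RPKM. HIST3H2A had 46.8 and 38.7 RPKM in KO clones, against 13.2 and 20.9 RPKM in WT clones.

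Most of the family was lower in WT clone 15 than in WT clone 54 with 4-OHT. There 51 of 53 members were lower in clone 15, by a median of -0.84 on the log2 scale, where 44.9% of the other genes tested were lower. Between KO clones 66 and 69 with 4-OHT 40 of 53 were lower in clone 66, by a median of -0.27, where 54.3% of the other genes were lower. Without 4-OHT 35 of 53 were lower in KO clone 66 than in clone 69, by a median of -0.16, where 57.2% of the other genes were lower. In WT clone 15 without 4-OHT 30 of 53 were lower than in clone 54, by a median of -0.05, where 50.5% of the other genes were lower. The median difference between KO and WT clones with 4-OHT was 0.27 over the members, -0.16 without WT clone 15 and 0.67 without WT clone 54. The sign of the family's difference between genotypes with 4-OHT therefore rested on which WT library was used.

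Without 4-OHT, 0 of 50 members tested were called by limma-trend, where 0% of 8201 genes were called higher or lower. An unadjusted p under 0.05 was found for 7 members and for 681 of all 8201 genes, and limma-voom called 0 members. The median difference was 0.06. HIST1H4C had 206 and 199 RPKM in KO clones 66 and 69, against 120.0 and 125 RPKM in WT clones 15 and 54, a difference of 0.72 ± 0.15 (adjusted p = 0.454). HIST3H2A had 14.9 and 21.6 RPKM in KO clones, against 6.76 and 8.48 RPKM in WT clones (1.14, adjusted p = 0.454). HIST1H2AH was higher by 0.81 and HIST1H2BI lower by a log2 difference of -0.70 (adjusted p = 0.515 and 0.538). Values of these 4 did not overlap between genotypes, as for 16 of 50 members and, upwards and downwards, 18.9% and 20.6% of all genes tested.

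The change with 4-OHT was not called as different between genotypes for any of 53 members, with 0% of 8820 genes called higher or lower by limma-trend. An unadjusted p under 0.05 was found for 3 members and for 451 of all 8820 genes, and limma-voom called 0 members. HIST2H2BE had the smallest p, its change being larger in KO clones by 1.29 ± 0.33 (adjusted p = 0.860). HIST1H2AJ differed by 2.07 ± 0.81, HIST1H3D by 1.01 ± 0.38 and HIST2H2BF by -0.43. The median interaction over the members was 0.16, and it was -0.33 without WT clone 15 with 4-OHT and 0.63 without WT clone 54 with 4-OHT.

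**Figure D5:**
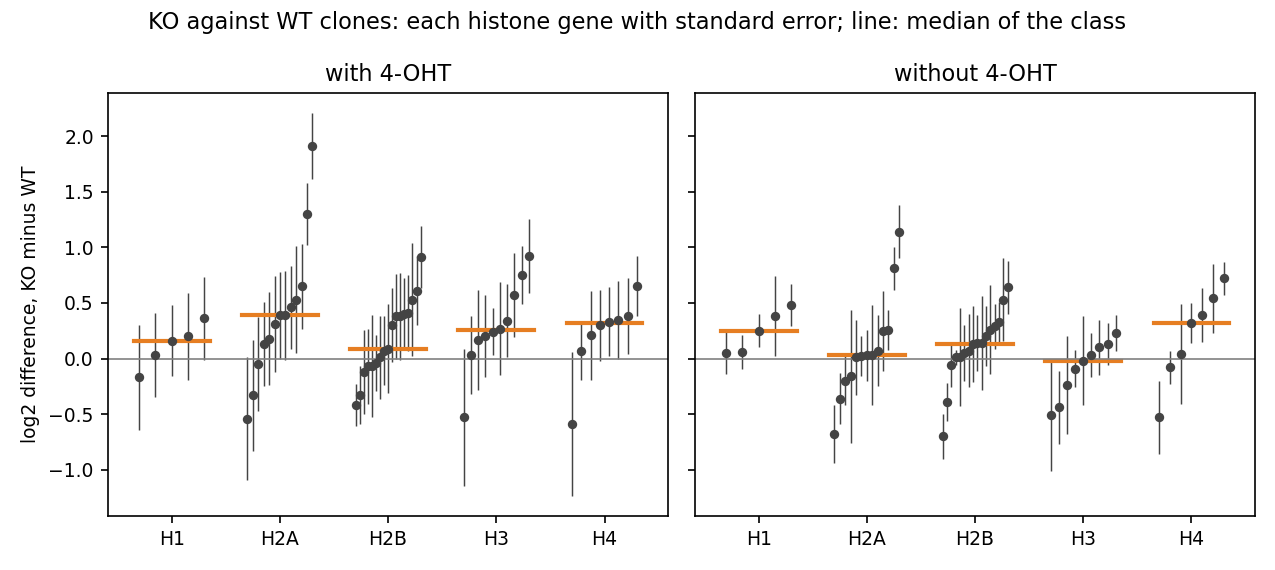
Log2 difference between KO and WT clones of each tested histone gene by class, with 4-OHT (left) and without (right), on the log2(RPKM + 1) scale with 1 standard error; orange lines are class medians. HIST1H2AJ lies highest at 1.91 with 4-OHT, and no gene passed an adjusted p under 0.05 by limma-trend.

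Of 19 genes that supply and process histone mRNA 12 were tested. In KO clones 0 were called higher and 1 lower, and in WT clones 1 higher and 0 lower. Over all genes tested 17.3% were called higher and 10.6% lower in KO clones and 13.7% and 8.06% in WT clones. SLBP, which binds the stem-loop and serves translation of these mRNAs, had 4.01 and 4.05 RPKM in KO clones 66 and 69 with 4-OHT, against 3.23 and 3.13 RPKM without it, and 4.09 and 3.73 RPKM in WT clones 15 and 54 with 4-OHT, against 2.09 and 2.26 RPKM without it. SLBP rose by 0.63 ± 0.18 in WT clones (adjusted p = 0.0437, close to the threshold) and had 0.27 ± 0.18 in KO clones (adjusted p = 0.296). For SLBP and the other listed genes outside the family, calls under the alternative settings are not given here. NPAT, the cyclin E/CDK2 substrate that activates histone transcription, had changes of -0.13 in KO and 0.05 in WT clones. CCNE2, a cyclin E, had -0.61 and -0.42, and none of these was called. Mean levels of both genes were under 1 RPKM, where the added 1 shrinks a change. CCNE2 had a mean of 0.271 RPKM in KO clones with 4-OHT, against 0.916 without it, and 0.444 against 0.964 in WT clones. NPAT had 0.267 against 0.379 in KO and 0.318 against 0.274 in WT clones. UPF1, a helicase used in histone mRNA decay, fell in KO clones by a log2 change of -1.16 (adjusted p = 0.0242) and had -0.89 in WT clones (adjusted p = 0.0686).

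Of 31 histone chaperones and import factors 27 were tested, with 2 higher and 1 lower in KO clones and 3 higher and 1 lower in WT clones, no larger shares than those over all genes. DAXX and SET rose by 1.37 and 1.13 in KO clones (limma-trend adjusted p = 0.0336 and 0.0329). NAP1L1, SSRP1 and NAP1L4 rose by 0.91, 0.89 and 0.73 in WT clones (0.0428, 0.0376 and 0.0442). SUPT6H, a chaperone of transcribed chromatin, fell in both, by log2 changes of -0.96 and -0.94. Of 12 replacement histone genes 6 were tested. Of these, 3 were called higher in KO and 4 in WT clones and 0 lower, with medians of 1.24 and 1.21. H1F0, the linker histone of resting and differentiated cells, had 440.3 and 404 RPKM in KO clones 66 and 69 with 4-OHT, against 64.8 and 70.1 RPKM without it, and 214 and 295 RPKM in WT clones with 4-OHT, against 50 and 55.6 RPKM without it. It rose by 2.63 ± 0.20 and 2.23 ± 0.20 (adjusted p = 0.000321 and 0.000658). H3F3B, which encodes H3.3, rose by 1.91 and 1.42, H2AFV by 1.42 and 1.61, and H2AFY, named after its values were seen, by 0.75 in WT clones.

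Of 41 DNA replication genes 35 were tested, with 10 higher and 0 lower in KO clones and 6 higher and 0 lower in WT clones, and medians of 0.13 and 0.19, where 17.3% of all genes were called higher in KO and 13.7% in WT clones. The WT count was near that share. ORC6, POLD2 and RPA3 led in KO clones at 1.60, 1.58 and 1.36, and POLD2, GINS4 and ORC6 in WT clones at 1.46, 1.28 and 1.15. ORC6, an origin recognition subunit, had 6.0 and 5.94 RPKM in KO clones with 4-OHT, against 1.02 and 1.61 RPKM without it. The replication list's medians were below those of the histone members, 2.48 and 2.15, but the lists differ in level. Many replication genes lay at a few RPKM or less, where the added 1 shrinks a change. RPA3, with a fitted change of 1.36, had a mean of 2.41 RPKM in KO clones with 4-OHT, against 0.325 without it. GINS4, at 1.28, had 2.07 RPKM in WT clones with 4-OHT, against 0.264 without it. The difference between lists was not tested.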

How the data were processed

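The authors deposited ribosome footprint values of 8 libraries as RPKM in 2 tables without a named unit. STAR and GRCh38 are given per the submitters' processing notes and the McGlincy and Ingolia footprint protocol per the labels' protocols; the sources used here do not give versions, read counter, annotation or how multi-mapped reads were handled. Every deposited RPKM value came out as a whole number of reads (100%) once each library's total and each gene's length were solved for. The tolerance was 0.02 of a read, widened for higher counts and for some fitted lengths. Fitted lengths were chosen to give whole reads, so for those genes whole reads are no check. The listed genes hold 99.8% to 99.85% of library reads. Lengths were the RefSeq span for 6049 genes, and fitted for 5757; 134 genes were 0 throughout. 0 per-sample columns were unused.

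Members and lists were chosen with earlier results of these data known. limma 3.58.1 (trend) in R 4.3.3 was fitted to log2(RPKM + 1), for genes with at least 10 reads in at least 2 libraries, on all 8 libraries for 4-OHT and its interaction with genotype and on 4 libraries of a table for KO against WT, with Benjamini-Hochberg adjustment over all genes tested at 0.05. All adjusted p-values are from limma. The added 1 shrinks changes of low genes. On simulated reads the fit of 4-OHT in WT clones, on 8692 genes, called 87 of 100 genes changed 3-fold and 100 of 100 changed 8-fold. The fit of KO against WT with 4-OHT, on 7722 genes, called 68 and 99 of 100. The simulation used 1 preset spread for all genes, not one estimated from these libraries, and changed only genes with enough expected reads. These shares therefore do not give the power of the fits on the real libraries, least of all for low copies. Clone numbers pair the samples, as the same clones were grown with and without 4-OHT; deviations of paired libraries from their group means had r = -0.0048 in KO and 0.1397 in WT clones across 8820 genes. The labels do not say whether libraries of a clone came from separate cultures, so p-values measure the spread between these samples. Floors of 3 reads and read counts cover counting error only.

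Named genes were, per class, the 3 highest by mean RPKM and those with the largest and smallest change in each genotype, members not called, the 4 smallest p of each genotype comparison and of the interaction, members outside HIST1, and the 3 largest called changes of each list; SLBP, NPAT and CCNE2 were always named. Alternatives were a pseudocount of 0.1, no filter, median-ratio scaling, scaling to reads outside the histone genes, limma-voom on recovered reads, the clone as a block, fits on other sets of libraries and leaving out each library; scaling to genes of both tables and limma-voom with the block were added after seeing the data. Protein and genome sequences were not used here.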

Additional observations from a re-analysis of the deposited data

How the results depend on the processing

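In KO clones 46 to 50 members were called higher with 4-OHT under the 9 alternative settings and in WT clones 42 to 49, and 0 were called lower. When 1 library was left out, the median change of the members ran from 2.41 to 2.63 in KO and from 1.81 to 2.70 in WT clones. The fewest members were called in WT clones without clone 54 with 4-OHT, a fit that also called fewer of all genes than the main one. With the clone as a replicate block the counts were 48 in KO and 47 in WT clones, and the interaction had 0 members; the block changed the call of HIST1H2AD, HIST1H4A and HIST2H2AC in WT clones, given above, and of no other member named. Median-ratio scaling turned the split of all genes called from 1526 higher and 934 lower to 1017 higher and 1340 lower in KO clones, and from 1212 and 711 to 832 and 984 in WT clones, with 46 and 42 members still called higher. It placed the median change of all genes at -0.04 and -0.02, and limma-voom placed it at 0.22 in both genotypes, calling 1967 higher and 989 lower genes in KO and 1918 higher and 1157 lower in WT clones.

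Between KO and WT clones with 4-OHT limma-voom called 4 members higher, and leaving out 1 library gave 0 to 2 higher and 0 to 2 lower, the calls all without KO clone 69; that fit also called 301 genes higher and 682 lower over all genes. The cause was not tested. Limma-voom called 30 genes higher and 27 lower there, 37 and 43 without 4-OHT, and 3 and 4 for the interaction. Leaving out 1 library gave KO changes from -0.08 to 1.25 for HIST1H2AD and from -0.16 to 1.75 for HIST1H4A, lowest without KO clone 69 with 4-OHT, and WT changes from -0.09 to 0.45 for HIST2H2BF, lowest without WT clone 54 with 4-OHT. The depth of KO clone 66 with 4-OHT limits low copies most.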
